A study of Mus musculus with 6 samples.

Results

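The 10 genes described here are factors of the formative and primed states of pluripotency: the signalling ligands Fgf4 and Fgf5 and the transcription factors Otx2, Pou3f1, Zic2, Zic5, Sox3, Sox4, Sox12 and Grhl2. They were chosen by gene symbol, with earlier results of these data known, and all 10 were found among the 33924 symbols in the tables. The libraries come from the mouse embryonic stem cell line E14, 3 of them labelled Rif1-KO and 3 control, the control cells being labelled WT. For all 6 libraries alike the labels give gelatin-coated plates, 2i medium, the mark Day 0, and 0.1 µM 4-hydroxytamoxifen (4-OHT) over 2 days followed by 1 day without the drug. The sample names inside the count tables carry TAM in the Rif1-KO libraries and 2i in the control libraries. Whether control cells received 4-OHT, and whether the medium was the same, therefore cannot be told apart from the Rif1 label. How Rif1, a chromatin protein of replication timing and break repair, was disrupted, and whether the line is 1 clone, is unknown from the sources used here. Rif1-KO therefore stands for the label in what follows.

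As embryonic stem cells leave the naive state they pass through a formative state, in which they gain competence for lineage choice, and reach a primed state like that of the epiblast before gastrulation. FGF4 made by the cells themselves activates the FGF receptors and the kinase ERK, and this signal is known to drive the exit. The medium called 2i blocks the kinase upstream of ERK together with GSK3, and so holds cells in the naive state. OTX2 is known to direct the transcription factor OCT4 to new enhancers during the exit, and FGF5 and POU3F1 (OCT6) are standard markers of the state that follows.

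Total counts ran from 9185062 to 10980777 in the Rif1-KO libraries and from 8383632 to 9218036 in the control libraries. Levels are given as CPM, counts scaled to a common library total by the usual CPM definition after TMM adjustment. All 8 embryonic stem cell markers passed the filter on low counts, and Pou5f1, which encodes OCT4, stood at 656 ± 33.1 CPM in Rif1-KO and 690.0 ± 32.8 CPM in control (SD, n = 3). The 8 summed to 4421 to 4808 CPM in Rif1-KO libraries and 4358 to 4581 CPM in control libraries. At an adjusted p under 0.05, 4 were higher in Rif1-KO (Nanog, Dppa5a, Klf2 and Klf4) and 1 was lower (Sox2). The remaining 3, Pou5f1 among them, did not pass. The targeted gene itself, Rif1, was read at 602, 604 and 664 CPM in Rif1-KO libraries and at 673, 657 and 700.1 CPM in control libraries. Its log2 fold change was −0.12 ± 0.05 (SE, adjusted p = 0.0509 by edgeR's quasi-likelihood test), the groups overlapped, and it passed under 8 of 12 alternative settings, among them that without Rif1-KO replicate 3 (−0.17, adjusted p = 0.00486) and that leaving out control replicate 2 (−0.14, adjusted p = 0.0343). A count over the whole gene does not check a deletion of part of it, so the groups are named by their labels.

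Of the 9 members that could be tested, 6 fell and 3 rose in Rif1-KO. Otx2, Pou3f1, Zic2, Zic5, Sox12 and Fgf4 were lower, by 1.28-fold to 1.83-fold, and Sox3, Grhl2 and Sox4 were higher, by 4.57-fold, 3.04-fold and 1.32-fold. Fgf5 was too scarce to test. The words rose and fell mean an adjusted p under 0.05 in edgeR's quasi-likelihood test, adjusted over all 14250 tested genes by the Benjamini-Hochberg method, with no minimum fold. By that rule 50.9% of all tested genes passed, 26.1% higher and 24.8% lower, so passing in itself does not set these genes apart. Pou3f1 and Sox3 passed the filter on low counts only through the group in which they were higher. The other 7 lay above the filter in all 6 libraries, and of those 5 fell and 2 rose. The median absolute log2 fold change was 0.479 for these 7 members, against 0.231 for all 13068 genes above the filter in all 6 libraries. The signed medians were −0.458 and −0.00934. The members were chosen with earlier results of these data known, so these medians describe the set and test nothing. In these bulk libraries fewer cells that express a gene and less RNA per cell cannot be told apart.

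**Figure D1:**
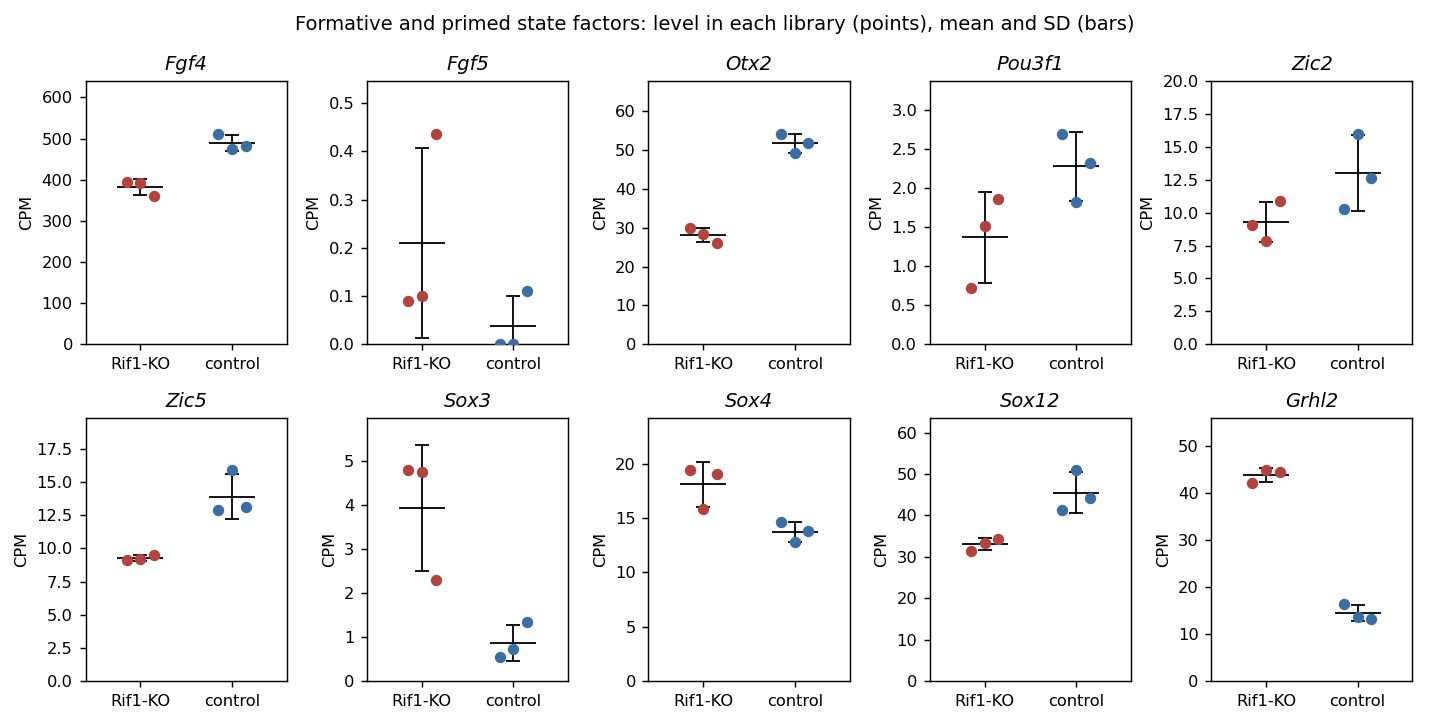
Level of each of the 10 members in CPM (vertical axes, each starting at 0) in the 3 Rif1-KO libraries (left, red) and the 3 control libraries (right, blue), with the mean and SD as bars. The groups do not overlap for Fgf4, Otx2, Zic5, Sox3, Sox4, Sox12 and Grhl2, while Fgf5, Pou3f1 and Zic2 overlap.

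Of the 7 members above the filter in all 6 libraries, Zic2 alone had groups whose libraries overlapped, and the other 6 did not overlap. Among the 13068 genes above the filter in all 6 libraries 58.0% did not overlap. For all tested genes the share was 57.2%, 29.4% with the Rif1-KO libraries higher and 27.8% with them lower. In the plot of levels by library, Sox3 did not overlap and Pou3f1 did, but each was tested only through its higher group.

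Fgf4, the ligand through which embryonic stem cells signal to themselves, was by far the most strongly read member. It had 394, 392 and 359.7 CPM in the Rif1-KO libraries, against 512, 475 and 481 CPM in the control libraries. Every Rif1-KO library lay below every control library. The means were 382 ± 19.3 CPM in Rif1-KO and 489.6 ± 20 CPM in control (SD, n = 3), a log2 fold change of −0.36 ± 0.05 (SE, adjusted p = 5.02e-06). Fgf4 remained the highest member per kilobase of exon in both groups.

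Fgf5, the classical marker of the primed epiblast, was close to silent in both groups. It had 1, 1 and 4 counts in the Rif1-KO libraries, against 0, 0 and 1 in the control libraries. The 6 counts in Rif1-KO and 1 in control give a ratio of 5.28 with an exact 95% interval of 0.641 to 243, which covers counting error only and includes no change. With every gene that had a count kept in the test, Fgf5 did not pass (log2 fold change 2.06 ± 1.37, adjusted p = 0.283). The log2 ratio of Fgf5 over Fgf4 within a library was −11.51, −11.34 and −9.51 in Rif1-KO and −13.21, −12.93 and −11.50 in control, with 0.5 added to each count. The difference of 1.76 did not pass an exact two-sided permutation test (p = 0.2, smallest possible 0.1), and was 0.9 with 2 added to each count.

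Otx2, a homeodomain factor of the formative state and later of the forebrain, had the largest fall among the members. It stood at 29.9, 28.3 and 26.1 CPM in the Rif1-KO libraries, against 54.2, 49.2 and 51.7 CPM in the control libraries. The ranges lay far apart relative to the spread within either group. The means were 28.1 ± 1.89 CPM in Rif1-KO and 51.7 ± 2.48 CPM in control (SD, n = 3; log2 fold change −0.88 ± 0.07, adjusted p = 5.43e-09). Of all tested genes, 1.91% had a lower log2 fold change. A noncoding gene on the opposite strand shares 154 exon bases with Otx2 (3.65% of its exon length). Another annotated gene on the same strand shares 168 (3.98%), where the origin of a read is ambiguous under any strand setting. Antisense genes likewise share 8.57% of the exon bases of Pou3f1 and 1.96% of those of Grhl2. Since the strand setting of the counting is unknown here, reads of such antisense partners cannot be told apart. The partner of Grhl2 is among the counted symbols, while those of Otx2 and Pou3f1 are not there under their annotated names.

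Pou3f1, a POU factor of the primed state and of neural fates, was scarce and its fall was fragile. It had 8, 15 and 17 counts in the Rif1-KO libraries, or 0.723, 1.52 and 1.86 CPM, against 25, 15 and 21 counts or 2.70, 1.82 and 2.32 CPM in the control libraries. The highest Rif1-KO library exceeded the lowest control library. The log2 fold change was −0.78 ± 0.31 (adjusted p = 0.0427). The call was lost with DESeq2 (adjusted p = 0.206), with an offset for GC content and length (0.0831), and without Rif1-KO replicate 1 (0.253), Rif1-KO replicate 2 (0.0594), control replicate 1 (0.149) or control replicate 3 (0.0945). Over all alternatives its log2 fold change ran from −1.06 to −0.45.

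The zinc finger genes Zic2 and Zic5 are neighbours on chromosome 14 in the RefSeq gene order, and both fell. ZIC2 is known to bind enhancers of pluripotent cells as they leave the naive state. Zic2 had 9.04, 7.88 and 10.9 CPM in the Rif1-KO libraries, against 10.3, 16 and 12.6 CPM in the control libraries. Rif1-KO replicate 3 lay above control replicate 1, and the other Rif1-KO libraries lay below every control library. Its log2 fold change was −0.48 ± 0.15 (adjusted p = 0.0138), a call lost without Rif1-KO replicate 2 (−0.38, 0.0767). Leaving out control replicate 2 also ended it, with a log2 fold change of −0.31 (adjusted p = 0.114).

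Zic5 had 9.13, 9.19 and 9.51 CPM in the Rif1-KO libraries, against 12.9, 15.9 and 13.1 CPM in the control libraries. The 3 Rif1-KO values were close together and all below control (log2 fold change −0.58 ± 0.12, adjusted p = 0.000457). The log2 ratio of Zic2 to Zic5 counts within a library averaged −0.01 ± 0.21 in Rif1-KO and −0.12 ± 0.18 in control (SD, n = 3). Their difference of 0.11 was within the spread (exact two-sided permutation p = 0.5, smallest possible 0.1). The next coding genes on either side, Clybl and Pcca, were also lower (log2 fold changes −0.20 ± 0.06 and −0.33 ± 0.08, adjusted p = 0.013 and 0.00103).

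The 3 SOX members moved in different directions. Sox3, a SOXB1 factor related to Sox2 and known in the epiblast and neural plate, had the largest fold change of the members. It had 53, 47 and 21 counts in the Rif1-KO libraries, or 4.79, 4.75 and 2.30 CPM, against 5, 6 and 12 counts or 0.541, 0.729 and 1.33 CPM in the control libraries. Rif1-KO replicate 3 was the lowest of its group and control replicate 3 the highest of the other, without overlap. The means were 3.94 ± 1.43 CPM in Rif1-KO and 0.866 ± 0.411 CPM in control (SD, n = 3; log2 fold change 2.19 ± 0.35, adjusted p = 2.67e-05). With control under the filter limit of 1.09 CPM in 2 libraries, Sox3 was tested only through its counts in Rif1-KO.

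Sox4 and Sox12 encode SOXC factors, which share a transactivation domain and act together in neural and mesenchymal progenitors. Sox4 had 19.4, 15.8 and 19.1 CPM in the Rif1-KO libraries, against 14.6, 12.8 and 13.8 CPM in the control libraries. All Rif1-KO libraries were higher, by a small margin for replicate 2 (log2 fold change 0.40 ± 0.11, adjusted p = 0.00493). A noncoding gene on the opposite strand covers 54.6% of the exon bases of Sox4, so the count of Sox4 is the most uncertain of the members in this respect. That noncoding gene is not among the counted symbols under its annotated name.

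Sox12 had 31.5, 33.4 and 34.3 CPM in the Rif1-KO libraries, against 41.4, 50.9 and 44.1 CPM in the control libraries. It was lower in every Rif1-KO library (log2 fold change −0.46 ± 0.08, adjusted p = 6.7e-05). Its neighbour Zcchc3 also fell, by 0.95 ± 0.10 on the log2 scale (adjusted p = 2.93e-07).

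The promoters of Sox4 and Sox12, close relatives that moved in opposite directions, are shown with that of Fgf4, the most abundant member. Each run is the 250 bases before the annotated start, 5′ to 3′ on the gene's strand, from RefSeq on GRCm38.p6, and capitals mark matches to any of the 9 motifs listed after them.
Sox4: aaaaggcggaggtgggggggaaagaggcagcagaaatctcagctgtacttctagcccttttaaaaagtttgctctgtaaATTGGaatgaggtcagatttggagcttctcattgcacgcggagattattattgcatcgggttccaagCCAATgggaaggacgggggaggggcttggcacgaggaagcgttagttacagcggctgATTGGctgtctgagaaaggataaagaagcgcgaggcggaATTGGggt
Sox12: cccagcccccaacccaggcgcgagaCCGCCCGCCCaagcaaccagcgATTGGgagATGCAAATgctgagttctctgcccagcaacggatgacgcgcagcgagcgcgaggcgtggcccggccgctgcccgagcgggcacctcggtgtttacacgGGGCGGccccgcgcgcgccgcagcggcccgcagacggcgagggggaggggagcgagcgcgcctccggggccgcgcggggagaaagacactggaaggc
Fgf4: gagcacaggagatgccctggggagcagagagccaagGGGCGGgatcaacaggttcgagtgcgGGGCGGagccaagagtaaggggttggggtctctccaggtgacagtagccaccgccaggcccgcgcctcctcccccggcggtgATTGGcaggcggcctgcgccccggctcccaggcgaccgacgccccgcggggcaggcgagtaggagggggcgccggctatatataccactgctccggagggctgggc
The motifs, searched on both strands, were the TATA box TATAAA, the CCAAT box CCAAT, the GC box GGGCGG, the octamer ATGCAAAT bound by POU factors, the E-box CACGTG, the SOX core CATTGT, an E2F site TTTCCCGC, the cAMP response element TGACGTCA and the NRF1 palindrome. The first 2 GC boxes of Sox12 overlap each other.

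The Sox4 stretch held 4 CCAAT boxes and no GC box, at 50.8% GC and 11 CG pairs. That of Sox12 held 1 CCAAT box, 3 GC boxes and 1 octamer, at 74.4% GC and 35 CG pairs. The Fgf4 stretch held 1 CCAAT box and 2 GC boxes, at 71.2% GC and 21 CG pairs. Among 32851 promoters of the same length, 33.8% held a CCAAT box, 32.7% a GC box and 1.6% an octamer. The shares were 12.4% for the TATA box, 10.7% for the SOX core, 6.02% for the E-box, 1.55% for the cAMP response element, 0.895% for the E2F site and 0.782% for the NRF1 palindrome, none of which matched in these 3 stretches, and the median GC content was 52.4%. A match describes the letters alone, and only exact matches were searched. Near its end the Fgf4 stretch holds the run tatatata, which is not an exact TATAAA and so was not marked. RefSeq promoter entries were matched for 6 of the 10 members.

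Grhl2, a grainyhead factor that opens epithelial enhancers as naive cells turn formative, rose clearly. It had 42.1, 44.9 and 44.5 CPM in the Rif1-KO libraries, against 16.3, 13.6 and 13.2 CPM in the control libraries. The lowest Rif1-KO library was over 2 times the highest control library. The means were 43.9 ± 1.53 CPM in Rif1-KO and 14.4 ± 1.71 CPM in control (SD, n = 3; log2 fold change 1.6 ± 0.09, adjusted p = 1.35e-11). Of all tested genes, 2.33% had a larger absolute change.

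**Figure D2:**
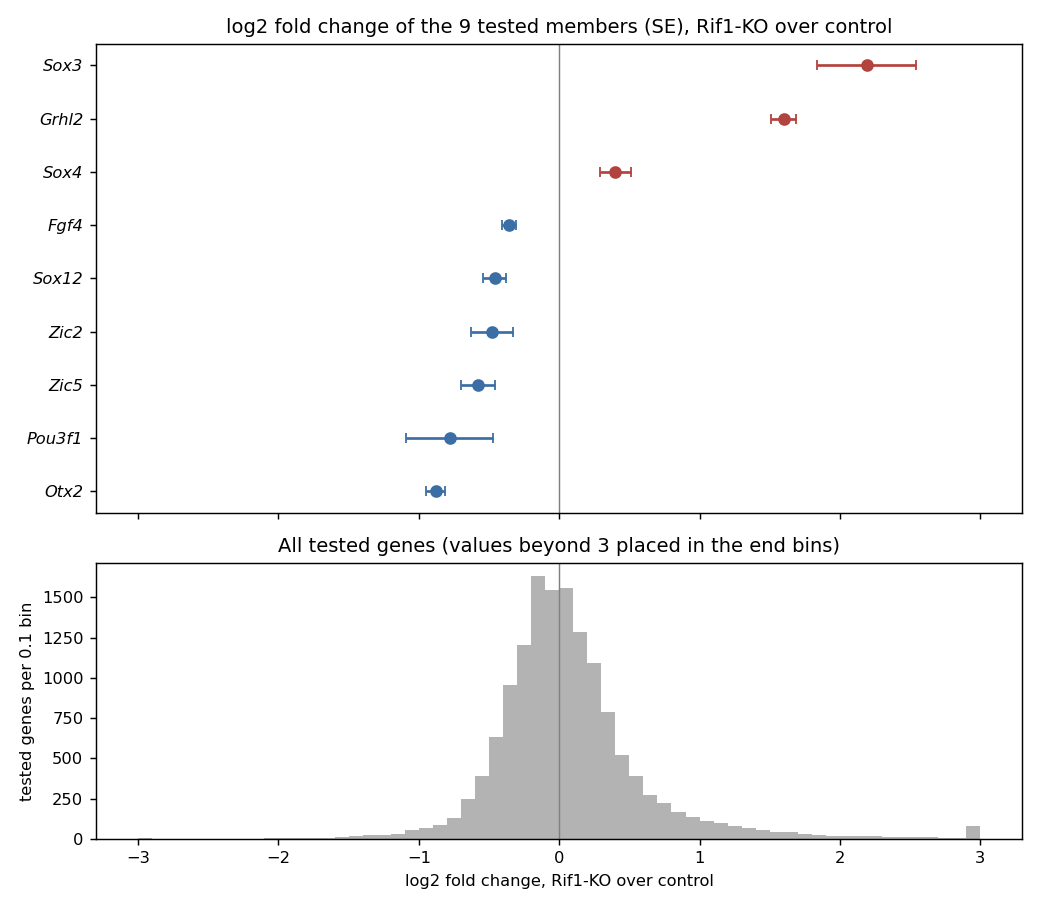
Log2 fold change of Rif1-KO over control with its SE for the 9 tested members (top, horizontal axis), and the number of all tested genes in bins of 0.1 (bottom). Sox3 at 2.19 and Grhl2 at 1.6 lie in the right tail of the 14250 genes, and the 6 members that fell lie between −0.88 and −0.36.

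Set side by side per kilobase of exon, with exon lengths from GENCODE on GRCm38, the order of the members differed between the groups. In Rif1-KO it ran Fgf4 (119.6 CPM per kilobase), Sox12 (7.43), Otx2 (6.66), Grhl2 (5.09), Sox4 (3.78), Zic2 (3.22), Sox3 (1.91), Zic5 (1.90), Pou3f1 (0.355) and Fgf5 (0.0838). In control it ran Fgf4 (153 CPM per kilobase), Otx2 (12.2), Sox12 (10.2), Zic2 (4.50), Sox4 (2.86), Zic5 (2.85), Grhl2 (1.67), Pou3f1 (0.593), Sox3 (0.419) and Fgf5 (0.0147). Grhl2 stood at rank 4 in Rif1-KO and at rank 7 in control. Neighbours in the order whose libraries overlapped were Sox12 and Otx2, Sox4 and Zic2, and Sox3 and Zic5 in Rif1-KO, and Sox4 and Zic5, and Pou3f1 and Sox3 in control.

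By pattern over the 6 libraries, Sox3 was most like Rras2 (Pearson r = 0.9986), Sash1 (0.9958) and Faf2 (0.9937) among 9821 tested genes with a mean of at least 10 CPM. Their own changes were far smaller, with log2 fold changes of 0.36 ± 0.08 for Rras2, 0.16 ± 0.05 for Sash1 and 0.11 ± 0.05 for Faf2, which did not pass (adjusted p = 0.0874). Otx2 was most like Rrm2 (0.9999), Gtpbp1 (0.9993) and Pck2 (0.9988), with log2 fold changes of −0.43 ± 0.05, −0.42 ± 0.05 and −0.70 ± 0.06. The 6 points fall into 2 groups, and 682 genes for Sox3 and 1791 for Otx2 reached an r of 0.9.

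The chromosomal neighbours of the members moved both ways. Of 18 coding genes that flank a member and are no members, 9 were tested, of which 2 rose (Exoc5 beside Otx2 and Rragc beside Pou3f1), 4 fell and 3 did not pass. The 4 were Clybl, Pcca, Zcchc3 and Fgf3, which lies beside Fgf4 and fell by 0.50 ± 0.18 on the log2 scale (adjusted p = 0.0228). These neighbours were named after their values were seen.

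Other formative and primed genes did not share one direction. Of 18 listed, 16 were tested, of which 6 rose, 4 fell and 6 did not pass, with a median log2 fold change of 0.123, against 0.00347 for all tested genes. Dnmt3l, the partner of the de novo DNA methyltransferases, had 89.3 ± 3.66 CPM in Rif1-KO and 21.9 ± 3.74 CPM in control (SD, n = 3; log2 fold change 2.02 ± 0.08, adjusted p = 1.93e-13). Rbpj, the DNA-binding partner of Notch, had 208 ± 2.18 and 122 ± 1.92 CPM in Rif1-KO and control (0.77 ± 0.04), and Cdh2, which encodes N-cadherin, 5.19 ± 0.445 and 1.63 ± 0.299 CPM (1.68 ± 0.22). Etv5, an ETS factor induced by ERK, rose by 0.30 ± 0.05 on the log2 scale. The 4 that fell, named after their values were seen, were Dnmt3a, Dnmt3b, Tcf15 and Etv4. T and Foxa2, markers of the streak and endoderm, stayed under the filter, with 0.848 ± 0.281 CPM in Rif1-KO and 1.06 ± 0.156 CPM in control for T.

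**Figure D3:**
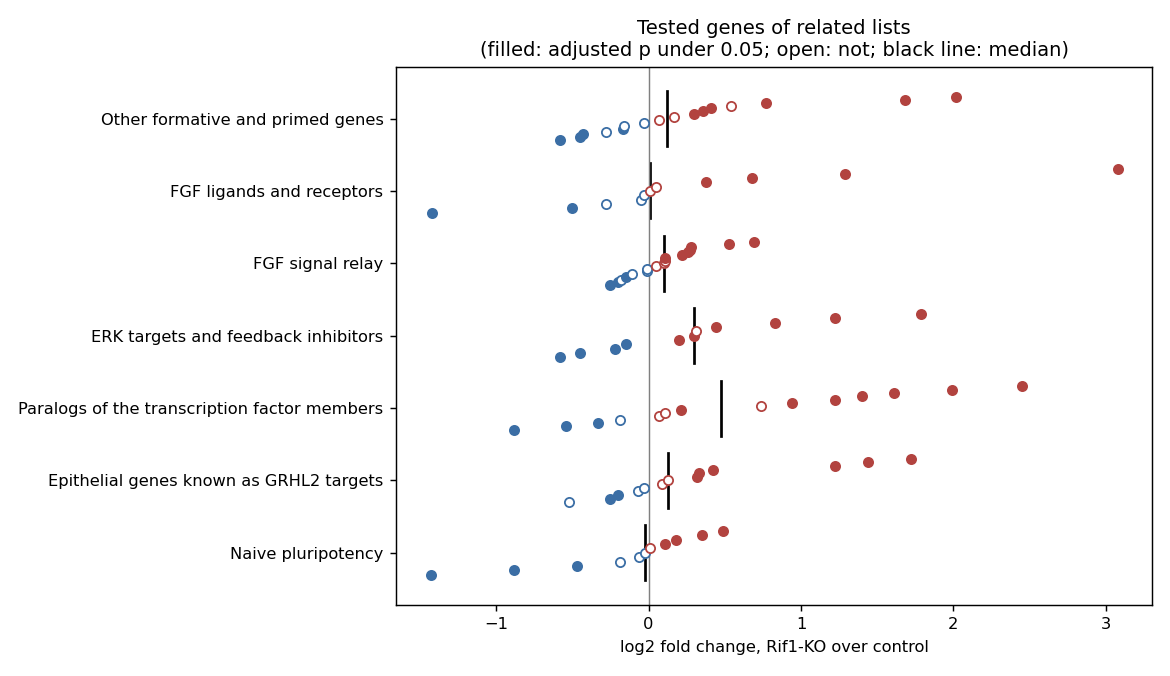
Log2 fold change of Rif1-KO over control (horizontal axis) for the tested genes of 7 lists (rows), filled where the adjusted p was under 0.05, with each list's median as a black line. Every list holds genes on both sides of 0, and the medians run from −0.0191 for naive pluripotency to 0.474 for the paralogs, of which 4 were tested only through Rif1-KO.

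Beside the fall of Fgf4, the remaining FGF ligands and receptors showed 4 rises, 2 falls and 5 that did not pass among 11 tested of 12 (median log2 fold change 0.012). Of the 7 above the filter in all 6 libraries, 2 rose, 1 fell and 4 did not pass. Fgf1, a ligand of all FGF receptors, had 3.27 ± 0.381 CPM in Rif1-KO and 0.380 ± 0.140 CPM in control (SD, n = 3; 3.08 ± 0.34, adjusted p = 3.4e-07), though it was tested only through its counts in Rif1-KO. Fgfr1, the main receptor of these cells and chosen with its values in view, averaged 112 ± 4.46 and 109 ± 2.58 CPM in Rif1-KO and control (adjusted p = 0.445). Fgfr2 had 1.15 ± 0.375 and 3.14 ± 0.474 CPM (−1.42 ± 0.28, adjusted p = 0.000244), passing the filter only through control. The decoy-like receptor gene Fgfrl1 rose by 0.68 ± 0.14 and Fgfr4 by 0.38 ± 0.11 on the log2 scale. Fgfr3, tested only through Rif1-KO, also rose and Fgf3 fell.

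The genes that relay the FGF signal to ERK moved in both directions, most by small amounts. All 17 were tested: 7 rose, 3 fell and 7 missed the threshold, with a median log2 fold change of 0.105. The exchange factor gene Sos2 rose by 0.69 ± 0.13, the receptor adaptor gene Frs2 by 0.26 ± 0.05 and the phosphatase gene Ptpn11 by 0.27 ± 0.05. Gab1 and Map2k2, named after their values were seen, were among the 3 that fell.

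Genes known as targets and feedback inhibitors of ERK moved in both directions. Their RNA does not measure ERK activity, and 2i, the medium in the labels of all 6 libraries, blocks the kinase upstream of ERK. Of 15 listed, 11 were tested, of which 6 rose, 4 fell and 1 (Dusp6) did not pass, with a median of 0.305. Of the 10 above the filter in all 6 libraries, 5 rose, 4 fell and 1 did not pass, with a median of 0.254. The phosphatase gene Dusp4 had 17.4 ± 1.51 CPM in Rif1-KO and 9.74 ± 0.833 CPM in control (SD, n = 3; 0.83 ± 0.12, adjusted p = 5.96e-06), and the immediate early gene Fos 16 ± 2.39 and 6.90 ± 0.360 CPM (1.22 ± 0.14). Egr1, tested only through Rif1-KO, had 3.43 ± 0.244 and 0.99 ± 0.3 CPM (1.79 ± 0.27). Spred2, a feedback inhibitor of the pathway, fell to 56.0 ± 0.701 CPM in Rif1-KO, against 83.5 ± 5.74 CPM in control (−0.58 ± 0.06, adjusted p = 1.27e-07). Etv4 and Etv5 stand in both this list and that of formative genes. Spry2, Il17rd and Etv4 also fell, and Dusp6, known as a close readout of ERK activity, had an adjusted p of 0.059.

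Among 25 paralogs of the transcription factor members, 14 were tested, of which 7 rose, 3 fell and 4 did not pass (median 0.474). Of these, Zic1, Sox6 and Sox17, which rose, and Pou3f3, which did not pass, were tested only through Rif1-KO. The remaining 10 comprised 4 that rose, 3 that fell and 3 that did not pass, with a median of 0.0924. Sox2, the SOXB1 relative of Sox3 and a core pluripotency factor, fell to 469 ± 19.4 CPM in Rif1-KO, against 683 ± 31.8 CPM in control (SD, n = 3; −0.54 ± 0.05, adjusted p = 1.78e-08). Sox21, another SOXB gene, fell by 0.88 ± 0.14 on the log2 scale. Sox11, the third SOXC gene beside Sox4 and Sox12, had 7.40 ± 0.549 CPM in Rif1-KO and 2.77 ± 1.35 CPM in control (1.40 ± 0.22, adjusted p = 2.92e-05). Sox6 had 4.60 ± 0.609 and 0.825 ± 0.225 CPM (2.45 ± 0.27). Grhl3, named after its values were seen, had 69.2 ± 1.20 CPM in Rif1-KO and 59.8 ± 2.37 CPM in control, a rise of 0.21 ± 0.06 on the log2 scale.

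Epithelial genes known as GRHL2 targets were mixed beside the rise of Grhl2. Among the 13 tested, from 15 listed, 6 rose, 2 fell (Cdh1 and Spint1) and 5 missed the threshold, with a median log2 fold change of 0.125. The tight junction gene Cldn4 had 389.7 ± 14.7 CPM in Rif1-KO and 167 ± 4.97 CPM in control (SD, n = 3; 1.22 ± 0.05, adjusted p = 8.51e-14). The keratin genes Krt8 and Krt18 had log2 fold changes of 1.72 ± 0.09 and 1.44 ± 0.07, and Epcam, an epithelial adhesion gene, of 0.32 ± 0.06. Cdh1, which encodes E-cadherin and was named after its values were seen, had 627 ± 21.3 CPM in Rif1-KO and 718 ± 25.0 CPM in control.

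Naive pluripotency genes, the counterpart of the members, also divided. The 11 tested comprised 4 that rose, 3 that fell and 4 that missed the threshold (median −0.0191). Dppa3, one of those that fell, was tested only through control, and the median of the remaining 10 was −0.00574. Prdm14, a repressor of FGF signalling, fell to 24.0 ± 0.958 CPM in Rif1-KO, against 44.1 ± 3.70 CPM in control (SD, n = 3; −0.88 ± 0.08, adjusted p = 1.84e-08). Nr5a2 fell by 0.47 ± 0.06 on the log2 scale, while Tbx3 rose by 0.49 ± 0.05 and Klf2 by 0.35 ± 0.06.

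Markers of other cell types moved together with some members, and their part in the results was not tested. Among the members with neural roles named above, Sox3 and Sox4 rose, while Otx2, Pou3f1 and Sox12 fell. The 8 neural progenitor markers read here summed to between 111 and 118 CPM in Rif1-KO libraries and between 46.0 and 55.2 CPM in control libraries. Of these, 4 were tested and rose, among them Nes, which made up most of the sum, Sox11, and Zic1, which passed the filter only through Rif1-KO. Neurog2 had no count in any library and Pax6, Pou3f2 and Neurog1 were each under 1 CPM throughout. Beside Grhl2, the 4 surface ectoderm markers summed to 0.723 to 1.86 CPM in Rif1-KO and 0.553 to 0.757 CPM in control, and none was tested. The 7 trophectoderm markers summed to 157 to 168 CPM in Rif1-KO and 71.3 to 72.6 CPM in control. Krt8 and Krt18, which are also among the GRHL2 targets, made up most of the sum and rose, while Krt7 fell. Of those not tested, Gata3 had 10, 12 and 13 counts in Rif1-KO and 2, 3 and 3 in control. Hand1 had 5, 4 and 3 against 1, 2 and 0, Elf5 had at most 3 in any library, and Cdx2 had no count. The 7 primitive endoderm markers summed to 30.3 to 32.8 CPM in Rif1-KO and 15.7 to 17.3 CPM in control. The 5 tested (Gata4, Gata6, Sox17, Pdgfra and Dab2) rose, Sox17 being tested only through Rif1-KO. Sox7, too scarce to test, was lower without overlap, with 1, 2 and 0 counts in Rif1-KO and 3, 8 and 3 in control. Foxa2 was also untested, and its groups overlapped. The 7 mesoderm and primitive streak markers summed to 19.0 to 21.3 CPM in Rif1-KO and 21.3 to 25.3 CPM in control. Of these, 4 were tested: Mesp2 rose (0.78 ± 0.26), Gsc fell (−1.12 ± 0.17) and 2 did not pass. The 6 fibroblast markers summed to 8.75 to 9.19 CPM in Rif1-KO and 11.2 to 18.8 CPM in control. Of the 2 tested, Thy1 fell (−0.99 ± 0.16) and 1 did not pass.

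**Figure D4:**
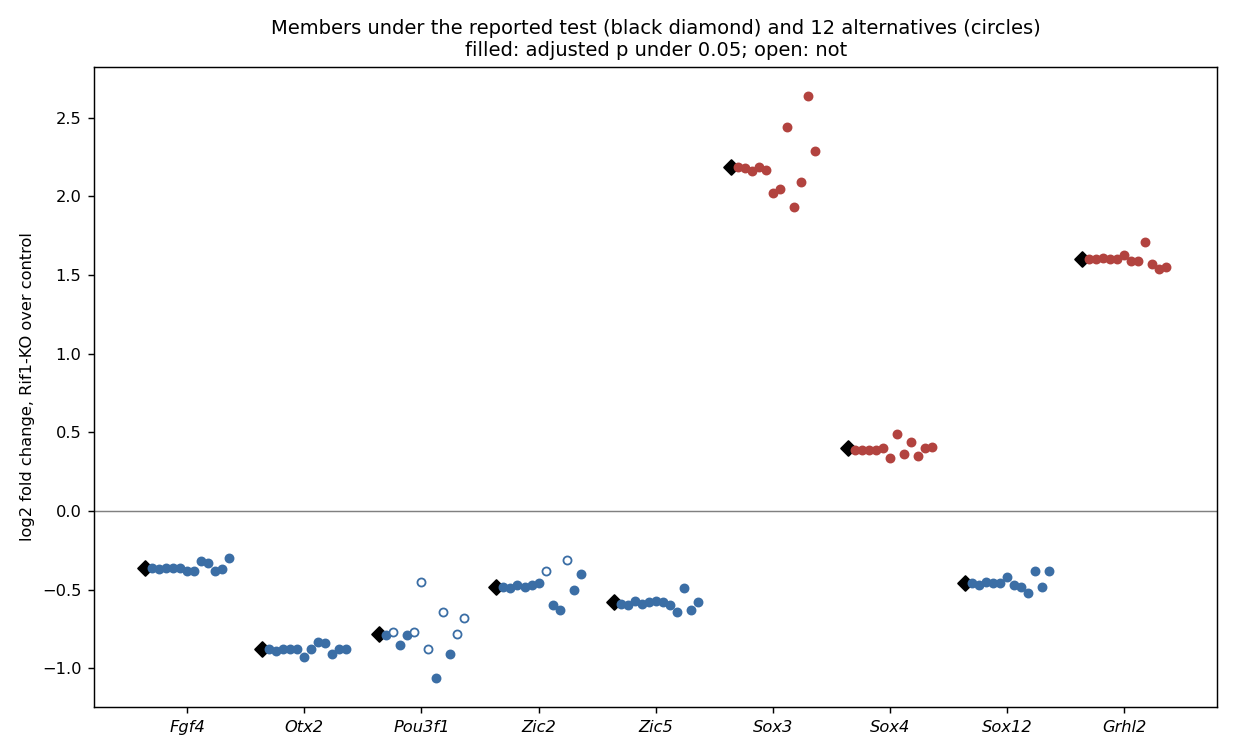
Log2 fold change of the 9 tested members (vertical axis) under the reported test (black diamond) and 12 alternatives (circles), filled where the adjusted p was under 0.05. No member changed sign, and the open circles, where the call was lost, belong to Pou3f1 (7) and Zic2 (2).

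Across the 12 alternatives Otx2 ran from −0.93 to −0.83, Fgf4 from −0.38 to −0.30, Zic5 from −0.64 to −0.49 and Sox12 from −0.52 to −0.38 on the log2 scale. Grhl2 ran from 1.54 to 1.71, Sox4 from 0.34 to 0.49 and Sox3 from 1.93 to 2.64. These 7 passed in each of the 12.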

How the data were processed

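Each library has a table of unnormalized read counts for 33924 gene symbols, as the authors deposited them. Per the submitters' processing notes the tools were STAR and featureCounts 1.6.2 and the build mm9. Annotation version, strand setting and treatment of multiply mapped reads are unknown from the sources used here, which leaves counts of overlapping genes uncertain. The reference used here is GRCm38 (GENCODE M21 and RefSeq), another build, so no coordinates are printed. It served for gene order, overlaps, promoters, exon length and GC content, which were found for 89.1% of tested genes.

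Tests were run in R 4.3.3 with edgeR 4.0.16. Genes were kept by filterByExpr (10 counts in a library of median size, which is 1.09 CPM, in at least 3 libraries), libraries were scaled by TMM, and the quasi-likelihood model held group alone, for Rif1-KO over control in all 6 libraries. Adjustment ran over 14250 tested genes. Every adjusted p comes from that fit unless an alternative setting is named beside it. The alternatives were other edgeR fits, DESeq2 1.42.0 or limma 3.58.1, each adjusted over its own tested genes. Data were simulated from the control mean counts and the library depths, and 13973 genes were tested. In them edgeR recovered 86.6% of genes changed by 1 on the log2 scale and 51.5% of those changed by 0.5. The simulation gave every gene the same dispersion and changed far fewer genes than were called in the real data. These rates therefore need not hold for this comparison. Total counts of 8383632 to 10980777 limit low genes most, and the interval given for Fgf5 reflects counting error alone, because reads carry no molecular identifiers and need not be separate molecules. Whether replicates are separate cultures is not in the labels, so p-values measure the spread between these samples, possibly a technical one. No 2 libraries of a group agreed within sampling noise (chi-square per degree of freedom 1.28 to 4.47).

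The members and lists were chosen with earlier results of these data known. The rule for named genes takes all members, Rif1, up to 4 genes per list in order of adjusted p, and the 3 genes most like the members with the largest rise and the largest fall. Of the listed genes, those not in the tables used here are not analysed here, and some that were tested are counted in their list but not reported here.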

Additional observations from a re-analysis of the deposited data

How the results depend on the processing

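The 12 alternatives were DESeq2's size factors in edgeR, DESeq2, limma-voom, no filter on low counts, a replicate block, each of the 6 libraries left out, and a correction by GC content and length that was chosen after seeing the data. Genes called numbered 7251, and 5550 to 7583 over the alternatives; without 1 library they ran from 6368 to 7099. The members that rose numbered 3 in every one. The members that fell numbered 6, or 5 where Pou3f1 was lost and in the fit without control replicate 2, where Zic2 was lost, and 4 without Rif1-KO replicate 2, where both were lost. The 34 genes that the naming rule takes from lists or by likeness kept their direction and side of the threshold in all 12. Replicate numbers did not pair the samples: deviations of same-numbered libraries correlated at 0.0646, −0.0578 and 0.0378, and 1 of the 3 Rif1-KO libraries correlated best with its own number. With the replicate block, 7386 genes were called, Pou3f1 had an adjusted p of 0.0544 and Rif1 of 0.0227. Rif1 also passed with DESeq2's size factors (0.0453), DESeq2 (0.0379), limma-voom (0.0264), no filter (0.0296), the correction (9.14e-06, log2 fold change −0.29), and without Rif1-KO replicate 3 (0.00486) or control replicate 2 (0.0343). Without 1 library the Zic2 to Zic5 difference ran from 0.00 to 0.21 and the Fgf5 to Fgf4 difference from 1.13 to 2.29. The cause of the lost calls was not tested. Depth limits Fgf5, with 7 counts in all, and Pou3f1 and Sox3, with 8 to 25 and 5 to 53 counts per library.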
